A study of Mus musculus with 9 samples.

Results

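Small nucleolar RNA genes and the non-coding transcripts that carry some of them were followed in mouse spleen CD4 T cells after CD69 cross-linking or Cd69 deletion. CD69 is an early activation receptor of lymphocytes. The members are the genes whose single array symbol begins with Snord, Snora, Scarna or Snhg, together with Gas5, each read by its brightest probe set over all 9 arrays. This rule gave 60 of 19938 genes. Of these, 54 are small RNA genes (31 Snord, 20 Snora and 3 Scarna), and 6 are host transcripts (Gas5, Snhg5, Snhg11, Snhg15, Snhg16 and Snhg17). Members were taken by name, and this set of names was chosen with earlier results of these data known. A further 41 rows that pair such a symbol with other symbols were not used, 24 of them of Snord116.

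Each group had 3 arrays of total RNA. The first group, CD69-activated, was wild-type C57BL/6J cells to which anti-CD69 was given at 24 h of culture and a secondary antibody that cross-links it at 48 h, both diluted 1 in 200. The second was CD69-/- cells on the same strain, and the third was wild-type cells. All 3 groups were CD4-enriched spleen cells grown for 72 h with bead-bound antibodies to CD3 and CD28, at 10 cells per bead, so every group was stimulated through the T cell receptor. The labels give neither age nor sex, and no wild-type group with a control antibody was analysed here. They call the arrays biological replicates but do not say that the cells were from separate mice, and the spread behind the p-values may then be technical.

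Small nucleolar RNAs guide chemical modification of other RNAs in the nucleolus. Box C/D members (Snord) direct ribose methylation, mainly of ribosomal RNA, through a particle that holds the methyltransferase fibrillarin. Box H/ACA members (Snora) direct pseudouridylation through a particle that holds dyskerin, and Scarna members act in Cajal bodies on spliceosomal RNAs. A few, such as U8 (Snord118), U14 (Snord14 copies), U17 (Snora73) and U22 (Snord22), are known from yeast, frog or cultured cells for cleavage of the ribosomal RNA precursor. In mammals most are cut out of the introns of a host gene, which may be a ribosomal protein gene or a non-coding gene whose spliced product has no conserved protein, such as Gas5. T cell activation is known to raise ribosome production.

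Values are log2 expression units and, since no detection call came with them, a dim member is not known to be expressed. Levels of different probe sets are not compared as amounts. The median of the 35556 probe sets lay between 7.396 and 7.556 in the 9 arrays, and arrays correlated at 0.9959 to 0.9977 within groups. Cd69 read 11.80, 11.84 and 11.74 in CD69-activated arrays, 9.65, 9.49 and 9.63 in CD69-/- arrays, and 12.03, 12.12 and 12.37 in wild-type arrays. Cd69 was thus lowest in the CD69-/- arrays, and where its probes lie relative to the deletion was not checked. Xist averaged 12.95 in CD69-activated, 6.01 in CD69-/- and 12.59 in wild-type arrays, so the CD69-/- arrays differ from the others in their sex pattern as well as in genotype. Both differences go with the same 3 arrays and cannot be told apart. Group means of the 10 CD4 T cell markers lay between 8.25 and 12.96, and those of the 7 B cell markers between 8.24 and 13.61, and neither range shows how many cells of a type were present. Among the small RNA genes the brightest probe sets were those of Snora52, Snord49b and Snord57, and the dimmest those of Snord61, Snord52 and Snord118.

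The small RNA genes spread more between the CD69-activated arrays than within the other groups, and their medians fell from replicate 1 to replicate 3. Their median SD was 0.230 in CD69-activated, 0.082 in CD69-/- and 0.075 in wild-type arrays. All genes also spread most in the CD69-activated group, though by less, with median SDs of 0.061, 0.045 and 0.046 in the same order. CD69-activated replicate 1 was the highest of its group for 36 of the 54 genes, and replicate 3 was the lowest for 38. Over all 19938 genes, with ties counted for each array, replicate 1 was the highest for 5857 and the lowest for 8872. Replicate 3 was the highest for 8312 and the lowest for 5611 of all genes. Arrays were also ordered within the other groups, but by smaller amounts. CD69-/- replicate 1 was highest for 26 small RNA genes and replicate 3 lowest for 31, where the all-gene counts were 7474 and 5628. Wild-type replicate 3 was highest for 33 and replicate 2 lowest for 32, where the all-gene counts were 4551 and 4674. The median small RNA gene lay 0.11 above, 0.17 below and 0.36 below the wild-type mean in CD69-activated replicates 1, 2 and 3. The medians of the CD69-/- arrays were 0.04, 0.03 and 0.00 from that mean, and those of the wild-type arrays 0.00, -0.04 and 0.06. Over all genes no array's median was further than 0.017 from the wild-type mean. The box H/ACA class showed most of this spread. Its median distance from the wild-type mean was 0.24, -0.28 and -0.50 in the CD69-activated arrays, with replicate 1 highest for 17 of 20 Snora genes and replicate 3 lowest for 18. In the other groups CD69-/- replicate 1 was highest for 13 and replicate 3 lowest for 16, and wild-type replicate 3 was highest for 11 and replicate 2 lowest for 16, with Snora medians between -0.02 and 0.12 in CD69-/- arrays and between -0.09 and 0.07 in wild-type arrays. The Snord medians were 0.00, -0.10 and -0.28 in CD69-activated replicates 1, 2 and 3.

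**Figure D1:**
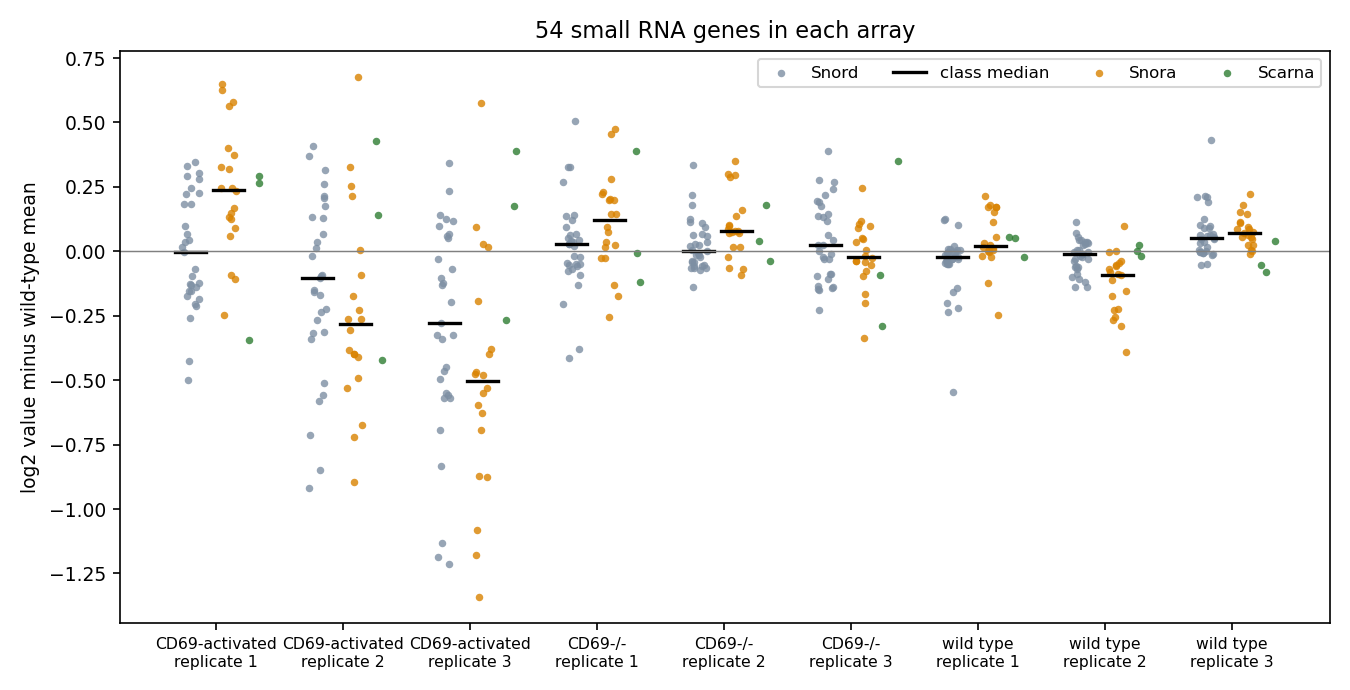
Each point is 1 of the 54 small RNA genes in 1 array, as its log2 value minus the gene's mean in the 3 wild-type arrays, coloured by class, and black bars are medians of the Snord and Snora classes. The Snora median is 0.24 in CD69-activated replicate 1 and -0.50 in CD69-activated replicate 3, while the CD69-/- and wild-type medians stay near 0.

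Individual box H/ACA genes show the size of this difference. They were picked after their values were seen, for their spread. Snora31, carried in the span of the translationally controlled tumor protein gene Tpt1, read 10.32, 9.20 and 8.58 in CD69-activated arrays, 10.37, 10.21 and 10.02 in CD69-/- arrays, and 10.09, 9.52 and 10.14 in wild-type arrays. Snora74a, within the non-coding Snhg4, read 11.36, 10.06 and 9.65 in CD69-activated arrays, 10.95, 10.89 and 10.77 in CD69-/- arrays, and 10.94, 10.46 and 10.78 in wild-type arrays. In both genes CD69-activated replicate 1 was above all wild-type arrays and the other CD69-activated arrays were below all of them. Snora16a, within Snhg12, read 12.60, 11.69 and 11.40 in CD69-activated arrays, against 11.82, 11.88 and 11.61 in CD69-/- and 12.13, 11.69 and 12.02 in wild-type arrays. Snora73a, a U17 gene within Snhg3, read 12.43, 11.46 and 11.40 in CD69-activated arrays, against 11.89, 11.88 and 11.79 in CD69-/- and 12.04, 11.64 and 11.92 in wild-type arrays. Snora73b, its close relative in the same host, followed it with 12.31, 11.34 and 11.20 in CD69-activated arrays. The probe sequences were not used here, so cross-hybridisation between such related copies (also Snord15a and Snord15b, Snord42a and Snord42b) was not tested.

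In all, 16 of the 54 genes lay above the whole wild-type range in CD69-activated replicate 1 and below it in the other CD69-activated arrays, and 12 of these were Snora genes. Another 13 were below the wild-type range in all 3 CD69-activated arrays, of which 10 were Snord genes, 2 Snora and 1 Scarna. Finally 8 were above it in all 3, and 4 of them were Snord genes. Over all genes 17.9% lay below the wild-type range in all 3 CD69-activated arrays and 18.1% above it. How many of all genes showed the mixed order of the 16 was not counted. The spread within groups can be set beside that of all genes. The residual SD of the fit had a median of 0.240 for Snora, 0.141 for Snord and 0.0768 for host transcripts, against 0.0598 over all 19938 genes, and it exceeded that all-gene median in 52 of 54 small RNA genes. Snora31 and Snora74a had the highest residual SD of all genes on the array, and small RNA genes made up 8 of the 10 highest and 21 of the 100 highest. Within the CD69-activated group, 9 of 54 small RNA genes (16.7%) ranged over more than 1 log2 unit, as did 10 of all 19938 genes (0.0502%). These are descriptions of 3 arrays. RNA was purified on a silica column kit, which is known to retain very short RNAs less well, and recovery of short RNA in each extract was not tested.

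**Figure D2:**
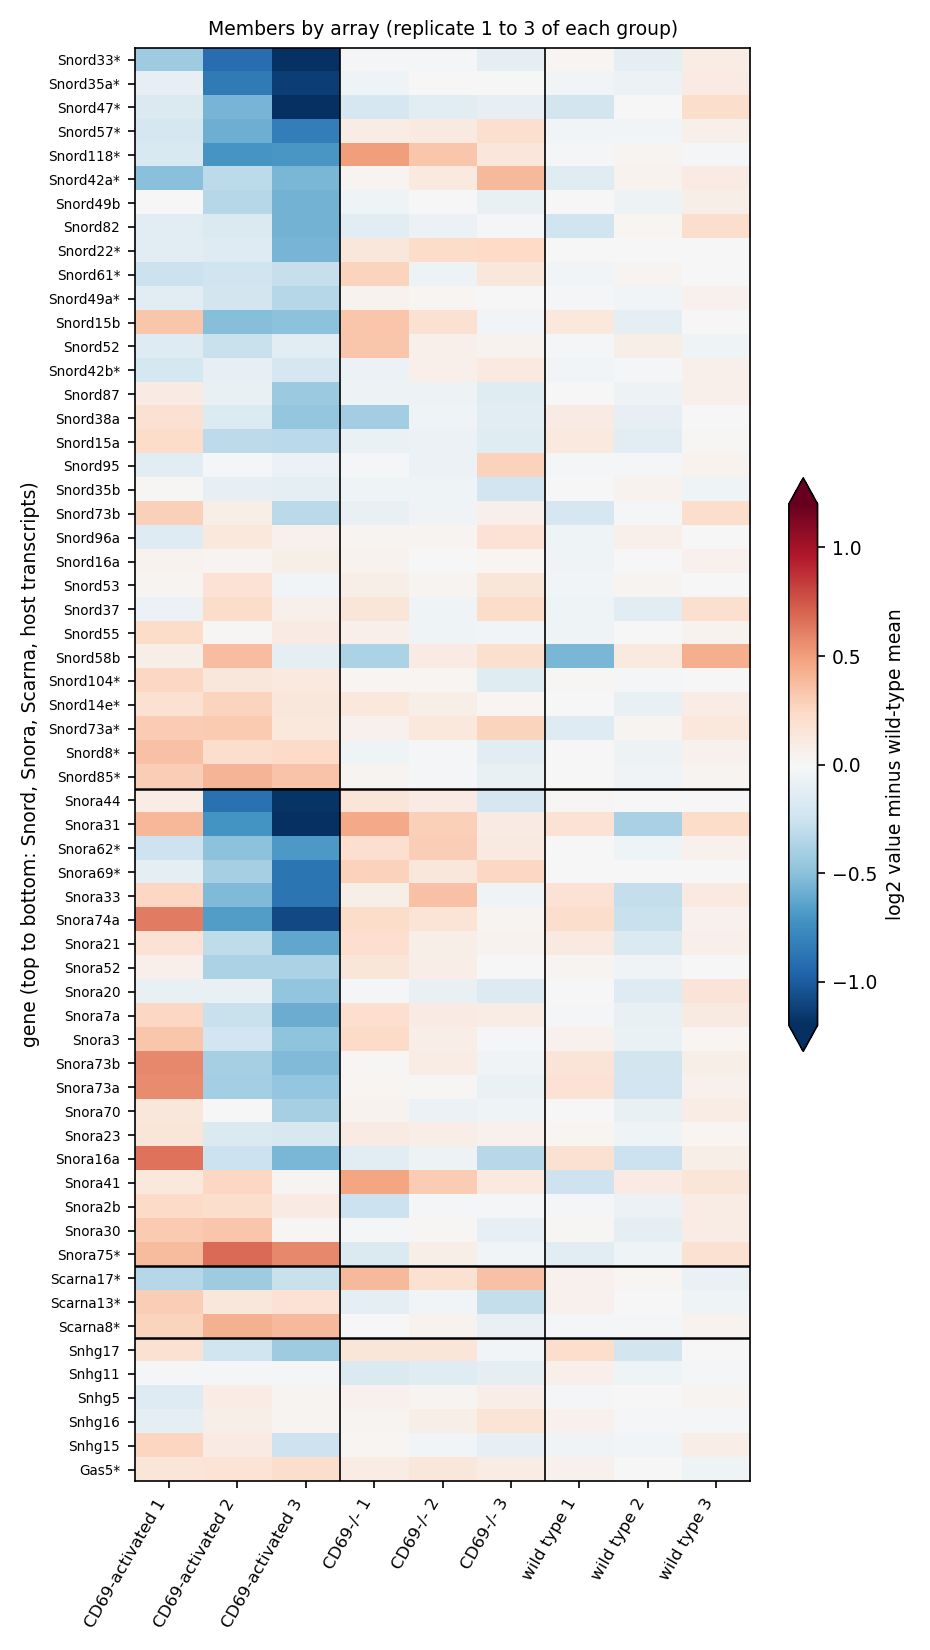
Colour shows the log2 value of each of the 60 members in each array minus the member's mean in wild-type arrays, with arrays in columns and genes in rows ordered within class by the CD69-activated minus wild-type difference. An asterisk marks members called between CD69-activated and wild type. CD69-activated replicate 1 is red in many Snora rows, such as Snora16a and Snora74a, where replicate 3 is blue.

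CD69-activated cells were compared with wild-type cells with limma over all genes, and a gene was called at a Benjamini-Hochberg adjusted p under 0.05. Differences are in log2 units with limma's standard error (SE), from 3 arrays per group. Small RNA genes moved both ways: 8 were called higher and 13 lower, which is 38.9% of the 54, where 23.8% of all genes were called. By direction the shares were 14.8% higher and 24.1% lower, against 10.1% and 13.7% of all genes. The median small RNA gene differed by -0.14 log2 units and the median of all genes by 0.02. Called Snord genes numbered 5 higher and 10 lower of 31, called Snora genes 1 higher and 2 lower of 20, and called Scarna genes 2 higher and 1 lower of 3. The arrays of the groups did not overlap for 8 higher and 13 lower small RNA genes, where 18.1% and 17.9% of all genes separated that way. Calls held without each of the 9 arrays in turn for 4 of the 8 higher and 7 of the 13 lower genes.

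Among the lower box C/D genes, Snord33 stood at 8.75, 8.25 and 7.99 in CD69-activated arrays and 9.19, 9.06 and 9.26 in wild-type arrays. The groups did not overlap, and the difference was -0.84 (SE 0.144, limma adjusted p = 0.0016). Snord33 lies in the span of the ribosomal protein gene Rpl13a, whose intronic small RNAs are known from rodent cells for a part in lipid-induced oxidative stress. Snord35a, from the same host gene, read 10.78, 10.03 and 9.75 in CD69-activated arrays and 10.85, 10.81 and 10.98 in wild-type arrays. Its difference of -0.69 was called (SE 0.194, adjusted p = 0.024), but was no longer called without any 1 of wild-type replicates 1, 2 or 3 or CD69-activated replicates 2 or 3, where it lay between -0.73 and -0.47 with an adjusted p of up to 0.0825. Rpl13a itself was not read by a probe set with a single symbol.

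Snord57, a guide held within Nop56, a core protein gene of the box C/D particle itself, read 12.49, 12.11 and 11.86 in CD69-activated arrays, against 12.66, 12.66 and 12.76 in wild-type arrays. All 3 CD69-activated values were lower, by 0.54 on average (log2 difference -0.54, SE 0.118, adjusted p = 0.00687). Snord118, the U8 RNA that in frog oocytes is needed to process large-subunit ribosomal RNA, read 5.87, 5.34 and 5.36 in CD69-activated arrays and 6.04, 6.08 and 6.04 in wild-type arrays. It was lower by a log2 difference of -0.53 (SE 0.128, adjusted p = 0.0117), near the dim end of the members, and it is the only small RNA gene here that no annotated gene contains. Snord42a, within Rpl23a, read 7.26, 7.44 and 7.21 in CD69-activated arrays against 7.61, 7.80 and 7.86 in wild-type arrays, a called difference of -0.46 (SE 0.0959, adjusted p = 0.00544). Its neighbour in the same host, Snord42b, differed by -0.17 (adjusted p = 0.0389), a call lost without 6 of the 9 arrays with adjusted p up to 0.132. Snord49a differed by -0.23 (SE 0.0522, adjusted p = 0.0084) and kept its call without each array. Snord22 at -0.28 and Snord61 at -0.26 were also called, and each lost the call without some arrays, with adjusted p up to 0.108 and 0.0689.

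Snord47 lies within Gas5. It read 10.79, 10.40 and 9.75 in CD69-activated arrays and 10.74, 10.97 and 11.18 in wild-type arrays, so that CD69-activated replicate 1 lay inside the wild-type range. The difference of -0.65 was just past the threshold (SE 0.204, adjusted p = 0.0402), and it was -0.36 with an adjusted p of 0.0706 without CD69-activated replicate 3. Leaving out any of 6 other arrays also ended the call (wild-type replicate 2 or 3, each CD69-/- array, or CD69-activated replicate 2), with adjusted p up to 0.141.

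Only 3 box H/ACA genes were called in this comparison. Snora62, in the span of the ribosomal protein gene Rpsa, read 7.53, 7.29 and 7.09 in CD69-activated arrays against 7.79, 7.73 and 7.83 in wild-type arrays, lower in all arrays by a log2 difference of -0.48 (SE 0.0923, adjusted p = 0.00337). Snora69, within X-linked Rpl39, read 8.85, 8.56 and 8.08 in CD69-activated arrays and 8.95, 8.96 and 8.96 in wild-type arrays. Its difference of -0.46 (SE 0.142, adjusted p = 0.0372) was not called without 7 of the 9 arrays, with adjusted p up to 0.0956, and it was -0.25 without CD69-activated replicate 3. Snora44 differed by as much, -0.66, but its wide CD69-activated values of 11.91, 10.92 and 10.64 left it short of the threshold (SE 0.245, adjusted p = 0.0758).

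Residual SDs of the called-higher small RNA genes ran from 0.053 (Snord85) to 0.147 (Snora75). Those of the called-lower genes ran from 0.069 (Snord49a) to 0.330 (Snord47), so the ranges overlapped. A small difference is called only where the spread is small, so these ranges depend in part on the calling. Snora75, within the nucleolin gene Ncl, read 8.93, 9.23 and 9.13 in CD69-activated arrays and 8.43, 8.50 and 8.73 in wild-type arrays, a difference of 0.54 (SE 0.0945, adjusted p = 0.0018). Scarna8, within Haus6, a subunit gene of the augmin complex of the spindle, read 7.74, 7.90 and 7.87 in CD69-activated arrays and 7.46, 7.46 and 7.52 in wild-type arrays (difference 0.36, SE 0.0503, adjusted p = 0.000406). Both sets of arrays were separate for both genes. Snord85, a box C/D guide, read 8.35, 8.47 and 8.40 in CD69-activated arrays and 8.06, 8.02 and 8.09 in wild-type arrays (difference 0.35, SE 0.0447, adjusted p = 0.000245). Snord8, inside the chromatin remodeller gene Chd8, read 9.32, 9.18 and 9.20 in CD69-activated arrays and 8.97, 8.91 and 9.02 in wild-type arrays (difference 0.26, SE 0.0507, adjusted p = 0.00333). These 4 kept their calls without each array. The remaining higher genes differed by 0.16 to 0.25 (Snord73a 0.25, Scarna13 0.20, Snord14e 0.19 and Snord104 0.16), and each lost its call without 3 to 7 of the 9 arrays, with adjusted p up to 0.166 for Snord73a, 0.14 for Scarna13, 0.0804 for Snord14e and 0.137 for Snord104.

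**Figure D3:**
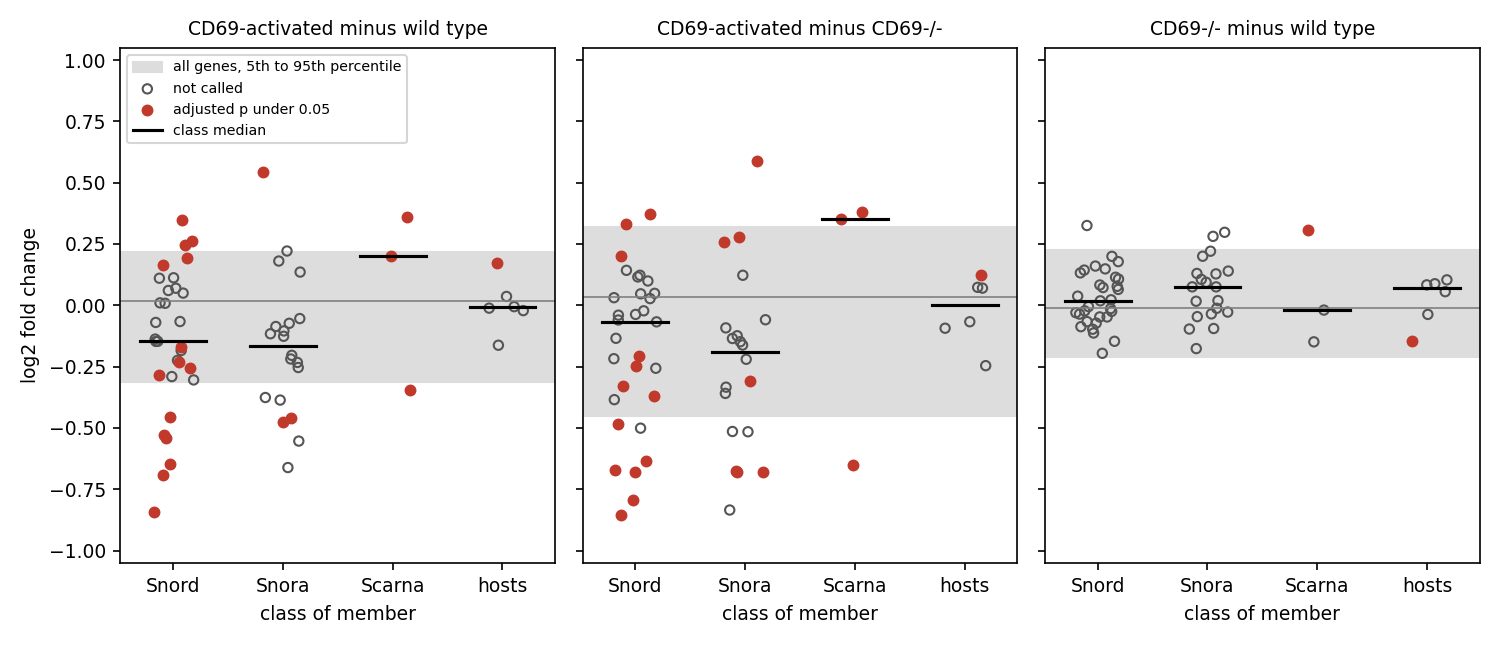
Points are log2 fold changes of the 60 members by class in the 3 comparisons, filled where the limma adjusted p is under 0.05. Black bars are class medians, the grey band spans the 5th to 95th percentile of all genes and the grey line is their median. Called Snord genes lie on both sides of 0 in the CD69-activated comparisons, down to -0.84 for Snord33, while 1 small RNA gene, Scarna17, is filled in CD69-/- minus wild type.

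The counts depended on which array was left out. Without CD69-activated replicate 1, 26 small RNA genes were called lower and 5 higher than in wild type. Of all genes, 11.5% were then called lower and 9.94% higher. Of the 26, 12 were among the 13 called on all arrays and 14 were added, and the Snora class alone had 13 lower genes. In that setting Snora44 differed by -1.04 (adjusted p = 0.000171), Snora31 by -1.03 (adjusted p = 0.00795) and Snora74a by -0.88 (adjusted p = 0.00251). The median small RNA gene then differed by -0.28. Without CD69-activated replicate 3 the counts were 8 higher and 9 lower, with a median of -0.02. Of all genes 9.03% were then higher and 13.8% lower. The lower count was 7 without wild-type replicate 2 and without wild-type replicate 3, where 10.2% and 12.9% of all genes were lower. The higher count was 4 if wild-type replicate 1 or 2 was left out, and 5 if CD69-activated replicate 2 was. The higher shares of all genes were then 7.4%, 7.29% and 9.63%. The 7 lower and 4 higher genes whose calls held without each array are Scarna17, Snora62, Snord33, Snord42a, Snord49a, Snord57 and Snord118, and Scarna8, Snora75, Snord8 and Snord85.

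CD69-/- cells were compared with wild-type cells over the same genes. Only Scarna17, a Cajal body guide RNA, was called among the 54 small RNA genes (1.85%), where 15.1% of all genes were called, 8.36% higher and 6.78% lower. The SE of this comparison pools the spread of all 9 arrays, so it includes the CD69-activated arrays. The median SD of small RNA genes was 0.230 within CD69-activated, 0.082 within CD69-/- and 0.075 within wild-type arrays. A missing call here therefore does not show that a gene was unchanged. With only the 6 arrays of these groups in the fit, 5 small RNA genes were called higher. Of all genes 9.25% were then called higher, and 16.5% in either direction. With each array centred on its median, 12.8% of all genes were called higher and 5.37% lower. No small RNA gene was called lower by limma, and 4 had an unadjusted p under 0.05 in either direction. The arrays of the groups were separate for 7 higher and 1 lower small RNA gene, 8 of 54, where 33.2% of all genes were separate. Scarna17 read 11.85, 11.64 and 11.82 in CD69-/- arrays and 11.52, 11.49 and 11.39 in wild-type arrays, a difference of 0.31 (SE 0.0622, adjusted p = 0.00599). The CD69-/- arrays were all higher. It was the only member to be called in both comparisons with wild type, and it lay on the other side of wild type in CD69-activated cells, which read 11.12, 11.04 and 11.20 (difference -0.34, SE 0.0622, adjusted p = 0.00222). Both comparisons use the same wild-type arrays. The median small RNA gene differed by 0.02 between CD69-/- and wild type, and the range over the 54 genes was -0.20 to 0.33. Snord118 had the highest positive difference there, 0.33, with an adjusted p of 0.128.

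CD69-activated cells were also compared with CD69-/- cells. Here 8 small RNA genes were called higher and 15 lower, 42.6% of the 54, and 42.6% of all genes were called as well. The lower share was 27.8% for small RNA genes and 21% for all genes, and the higher share 14.8% and 21.6%. Arrays did not overlap for 22 of the 54, against 51.5% of all genes. Scarna17 gave the lowest adjusted p, with a difference of -0.65 (SE 0.0622, adjusted p = 1.12e-05). Snord118 differed by -0.85 (SE 0.128, adjusted p = 0.000313), with 5.87, 5.34 and 5.36 in CD69-activated arrays and 6.56, 6.39 and 6.19 in CD69-/- arrays. Snord33 differed by -0.80 (adjusted p = 0.00112), Snora62 and Snora69 by -0.68 (adjusted p = 0.000157 for Snora62 and 0.00276 for Snora69), Snord57 by -0.67 (adjusted p = 0.000927) and Snord42a by -0.63 (adjusted p = 0.00033). On the higher side Snora75 differed by 0.59 (adjusted p = 0.000499), Scarna8 by 0.38 (adjusted p = 0.000123), Snord85 by 0.37 (adjusted p = 6.06e-05), Scarna13 by 0.35 (adjusted p = 0.0012), Snord8 by 0.33 (adjusted p = 0.000373), Snora2b by 0.28 (adjusted p = 0.00738) and Snord104 by 0.20 (adjusted p = 0.0102). All of these kept their calls without each array.

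Another 4 calls of this comparison did not hold without some array. Snora44 differed by -0.68 (adjusted p = 0.0452, and up to 0.166 without 1 of 8 arrays), Snord35a by -0.68 (adjusted p = 0.0159, and up to 0.0579 without CD69-activated replicate 2 or 3), and Snora52 by -0.31 (adjusted p = 0.0272, and up to 0.102 without CD69-/- replicate 1 or 2 or CD69-activated replicate 2 or 3). Snora30, higher by 0.26 (adjusted p = 0.0253), reached 0.0962 without CD69-/- replicate 1 or 3 or CD69-activated replicate 1 or 2. Snora31 differed by -0.83 and was not called (SE 0.340, adjusted p = 0.0694). Without CD69-activated replicate 1 the lower count was 28, with 13 of the 20 Snora genes, where 18.7% of all genes were called lower.

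Markers of other cell types were also read in these groups. Of all genes, 10.1% were called higher and 13.7% lower in CD69-activated than in wild-type arrays. In CD69-/- arrays 8.36% were called higher and 6.78% lower than in wild type. The marker lists are short, so a count of 1 or 2 genes can lie near these shares. Both CD8 markers and 4 of 5 NK cell markers were called lower in CD69-activated than in wild-type arrays, and the sums of their linear levels were 5785 to 6626 against 7805 to 7934 for CD8 and 2399 to 2646 against 3762 to 3972 for NK. Of 8 myeloid markers 4 were called higher and 1 lower in that comparison, and of 7 B cell markers 1 higher and 2 lower. Of 10 CD4 T cell markers none was called higher and 3 lower there, with sums of 36438 to 37114 in CD69-activated and 36570 to 38673 in wild-type arrays. In CD69-/- arrays relative to wild type, 9 of 10 CD4 T cell and both CD8 markers were called higher, while all 7 B cell and 7 of 8 myeloid markers were called lower. The 5 NK markers were split, with 3 called lower, 1 higher (Klrd1, 0.23, adjusted p = 0.0114) and 1 not called. Their sums were 3992 to 4241 in CD69-/- and 3762 to 3972 in wild-type arrays. Of 3 erythroid markers 2 were called lower in CD69-/- arrays, and 1 was higher and 1 lower in CD69-activated arrays, against wild type. The part of cell makeup in the small RNA differences was not tested, and in bulk RNA fewer cells of a type and less RNA per cell cannot be told apart.

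The residual SD of the 6 host transcripts ran up to 0.226 (Snhg17), above the small RNA median of 0.158, with a median of 0.0768. Gas5, a growth-arrest transcript whose spliced product is known to be removed by nonsense-mediated decay while its introns release box C/D RNAs, read 11.83, 11.85 and 11.90 in CD69-activated arrays, 11.77, 11.82 and 11.77 in CD69-/- arrays and 11.74, 11.69 and 11.64 in wild-type arrays. CD69-activated exceeded wild type in all arrays by 0.17 (SE 0.0387, adjusted p = 0.00755) and kept this call without each array. Among the 6 host transcripts this was the only call in the comparison with wild type (16.7%, 1 higher and 0 lower). Of all genes 23.8% were called there, 10.1% higher and 13.7% lower. The probe sets of Gas5 disagreed. The next brightest read 10.58, 10.39 and 10.21 in CD69-activated arrays against 10.66, 10.75 and 10.81 in wild-type arrays, a difference of -0.34, and the mean of its 4 probe sets differed by -0.092 (adjusted p = 0.43). The direction of Gas5 therefore rests on which probe set is read, and which exons or introns each set covers was not tested.

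Snhg11 read 7.51, 7.51 and 7.52 in CD69-activated arrays, 7.36, 7.39 and 7.42 in CD69-/- arrays and 7.60, 7.48 and 7.52 in wild-type arrays. It was lower in CD69-/- than in wild type by a log2 difference of -0.15 (SE 0.039, adjusted p = 0.0271) and higher in CD69-activated than in CD69-/- by 0.12 (adjusted p = 0.0245). The first call was lost without wild-type replicate 1 or 3 or CD69-/- replicate 1 or 2 (adjusted p up to 0.102), and the second without CD69-/- replicate 1 or 2 or CD69-activated replicate 3 (adjusted p up to 0.0836). It was the only host transcript called in either comparison. That is 16.7% of the 6 in each, where 15.1% and 42.6% of all genes were called.

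The 4 other host transcripts were not called in any comparison. Snhg17 read 10.02, 9.60 and 9.41 in CD69-activated, 9.98, 9.98 and 9.80 in CD69-/- and 10.05, 9.62 and 9.84 in wild-type arrays, with the same order of CD69-activated arrays as the box H/ACA genes. Snhg15 read 10.52, 10.37 and 10.02 in CD69-activated, 10.29, 10.24 and 10.17 in CD69-/- and 10.23, 10.23 and 10.34 in wild-type arrays, so its CD69-activated arrays lay on both sides of the other groups. Snhg5 read 9.21, 9.46 and 9.41 in CD69-activated, 9.43, 9.41 and 9.45 in CD69-/- and 9.34, 9.36 and 9.41 in wild-type arrays. Snhg16 read 8.36, 8.55 and 8.51 in CD69-activated, 8.51, 8.54 and 8.64 in CD69-/- and 8.53, 8.45 and 8.45 in wild-type arrays. The differences of these 4 between CD69-activated and wild type lay between -0.16 and 0.04.

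**Figure D4:**
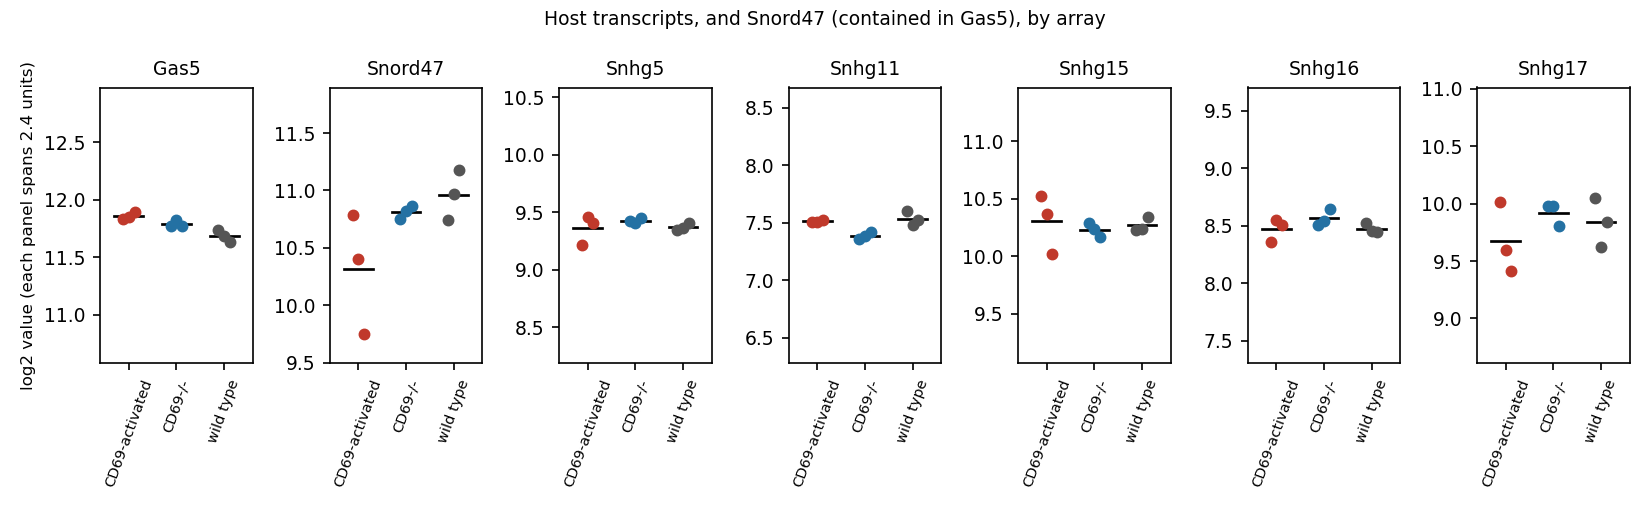
Points are log2 values of the 6 host transcripts and of Snord47 in each array, by group, and bars are group means (every panel spans the same number of log2 units). CD69-activated Gas5 sits at 11.83 to 11.90 above wild type at 11.64 to 11.74, while Snord47, contained in Gas5, reads 9.75 to 10.79 in CD69-activated arrays against 10.74 to 11.18 in wild type.

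Many snoRNA host genes are terminal oligopyrimidine (TOP) genes, whose transcripts begin with a C and a run of pyrimidines that ties their translation and turnover to growth signals. The sequence around the annotated starts is shown for Gas5, the host called between CD69-activated and wild-type cells, Snhg16, the host with the longest run, Snhg11, the host called in the comparisons with CD69-/- cells, and Snhg15. Each line gives 40 bases on either side of the start, read in the direction of transcription, from RefSeq on GRCm38.p6. Capitals mark a run of at least 5 pyrimidines opening with C, found within 15 bases of the start on the transcribed strand, except in Snhg15, where they mark CACGTG, the E-box that MYC is known to bind.
Gas5, upstream start, chr1:161034561-161034640, plus strand: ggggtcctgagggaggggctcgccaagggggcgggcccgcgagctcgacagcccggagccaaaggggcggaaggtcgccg
Gas5, downstream start, chr1:161035126-161035205, plus strand: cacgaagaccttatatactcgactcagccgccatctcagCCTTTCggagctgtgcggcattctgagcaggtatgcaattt
Snhg16, chr11:116671620-116671699, plus strand: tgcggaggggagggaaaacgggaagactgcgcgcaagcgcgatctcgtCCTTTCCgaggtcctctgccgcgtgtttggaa
Snhg11, chr2:158375673-158375752, plus strand: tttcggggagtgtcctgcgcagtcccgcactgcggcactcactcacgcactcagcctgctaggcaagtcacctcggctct
Snhg15, chr11:6528721-6528800, minus strand: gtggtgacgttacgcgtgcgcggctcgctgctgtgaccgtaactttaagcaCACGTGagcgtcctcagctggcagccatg

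Such a run was found at 3 of the 6 host transcripts (Gas5, Snhg5 and Snhg16), and at 43.3% of the 27025 mouse genes with a promoter in the RefSeq table. CACGTG, which reads the same on both strands, was found in the promoter of 1 of the 6 (Snhg15), and in 8.09% of all promoters (250 bases before the start to 50 after). Of the 3 hosts with a run, Gas5 was called higher in CD69-activated than in wild type and the others were not called. A match of letters is a description and does not show a start site in these cells.

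Most small RNA genes share a kind of host. By span in the RefSeq annotation, 53 of 54 lie within another gene, 41 in a protein-coding gene and 15 in a long non-coding gene (3 lie in 2 genes). Of the 54, 21 lie within 16 ribosomal protein genes. The table gives spans and not splicing, so whether each sits in an intron was not checked. A single-symbol probe set read the containing gene for 30 small RNA genes, in 26 hosts. Against wild type, 3 of these 26 hosts were called higher in CD69-activated cells, 6 lower and 17 not, where 10.1% of all genes were called higher and 13.7% lower. The 6 called-lower small RNA genes with a measured host had 1 host called higher (Gas5, by its brightest probe set only, since the mean of its probe sets differed by -0.092 with an adjusted p of 0.43), 1 called lower (Nop56, difference -0.36, adjusted p = 5.87e-05) and 4 not called. The 5 called-higher ones had 2 hosts called lower and 3 not called. One of the lower hosts was Ncl, which encodes the ribosomal RNA processing protein nucleolin (-0.19, adjusted p = 0.0123), and the other was Hspa8, which encodes a constitutive chaperone (-0.11, adjusted p = 0.045).

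**Figure D5:**
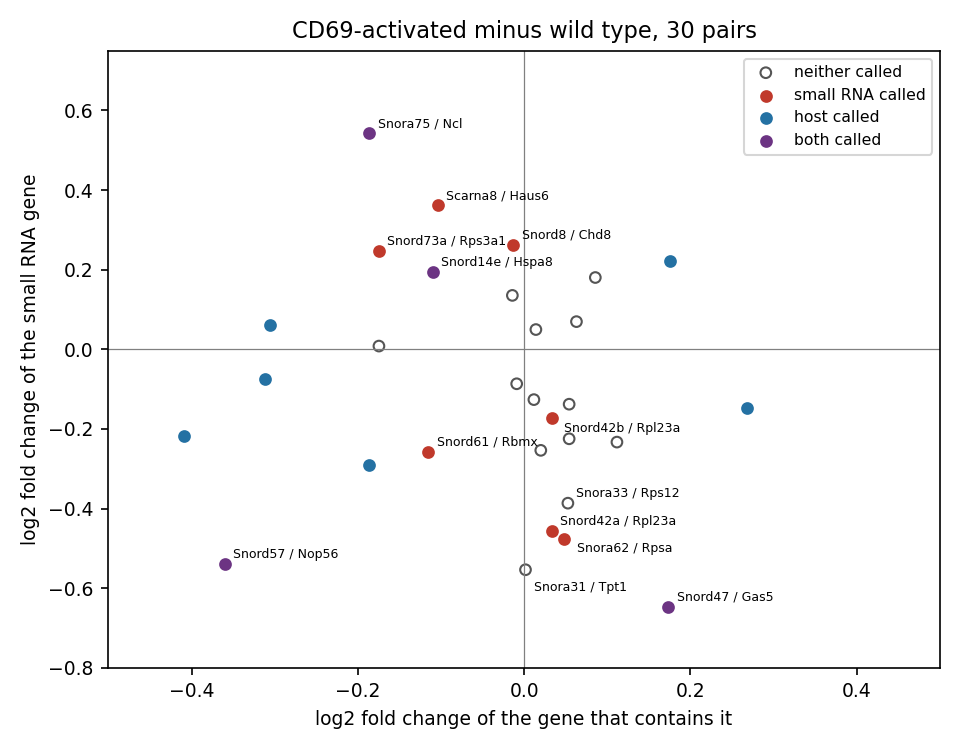
Each of 30 points is a small RNA gene and the gene that contains it, with the log2 fold change of CD69-activated minus wild type of the host on the horizontal axis and of the small RNA on the vertical axis. Colour shows which of the pair was called. Ribosomal protein hosts such as Rpsa and Rpl23a lie near 0 while Snora62 and Snord42a lie near -0.5, and Snora75 lies opposite to Ncl. Gas5 is drawn at its brightest probe set (0.17), and the mean of its 4 probe sets is -0.092, on the same side as Snord47.

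Pairs of one host also differed among themselves. Ncl holds Snora75, which differed by 0.54 between CD69-activated and wild type, and Snord82, which differed by -0.29 without being called (adjusted p = 0.114). Snhg12 holds Snora44 at -0.66 and Snora16a at -0.05, neither called. In Rpl13a both Snord33 and Snord35a were lower, as in Rpl23a were Snord42a and Snord42b, while Rpl23a itself differed by 0.03 (adjusted p = 0.499). Rpsa differed by 0.05 (adjusted p = 0.395) where its Snora62 differed by -0.48. Tpt1 differed by 0.00 (adjusted p = 0.98) where its Snora31 differed by -0.55 without being called (SE 0.340, adjusted p = 0.278). Differences between the members of a pair were not tested.

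The proteins that package and mature small nucleolar RNAs were read from fixed lists, which were chosen with earlier results of these data known. Of 14 genes for box C/D particle proteins and their assembly factors, 13 were called lower and none higher in CD69-activated than in wild-type cells, where 13.7% of all genes were lower and 10.1% higher. The median was -0.34, and 0.02 over all genes. Nop58, a core protein that binds the guide RNA beside Nop56, read 8.63, 8.89 and 8.55 in CD69-activated arrays and 9.45, 9.53 and 9.46 in wild-type arrays (difference -0.79, SE 0.0769, adjusted p = 4.1e-05). The CD69-activated arrays were all lower, and replicate 1 lay between the others. Ruvbl1 and Ruvbl2, ATPases of particle assembly, differed by -0.58 (adjusted p = 5e-05) and -0.48 (adjusted p = 0.000409), and the shared nucleolar chaperone Nolc1 by -0.58 (adjusted p = 4.36e-06).

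Of 11 box H/ACA and Cajal body particle genes 8 were called lower and 1 higher, with a median of -0.32. Dkc1, which encodes the pseudouridine synthase dyskerin, read 9.49, 9.66 and 9.44 in CD69-activated arrays and 10.19, 10.20 and 10.11 in wild-type arrays (difference -0.64, SE 0.0543, adjusted p = 1.57e-05). The groups were separate. Gar1, another core protein, differed by -0.60 (adjusted p = 0.000115), and the assembly factor Naf1 by -0.52 (adjusted p = 2.5e-05). The one higher gene was Tert, the telomerase catalytic subunit, which shares this particle through the telomerase RNA. It read 7.64, 7.86 and 7.51 in CD69-activated arrays and 7.35, 7.40 and 7.31 in wild-type arrays (difference 0.31, adjusted p = 0.00848). Among 22 genes of intron debranching and 3-prime trimming 10 were called lower and 1 higher, with a median of -0.13. They included the exosome factors Mphosph6 (-0.41, adjusted p = 0.000353), Dis3 (-0.40, adjusted p = 4.04e-05) and Exosc3 (-0.34, adjusted p = 0.000755).

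RNA polymerase I and ribosomal RNA processing genes, which make and cut the RNA that the guides act on, were called lower in 27 of 32 and higher in none, with a median of -0.28. Myc, a transcription factor known to drive ribosome production, read 10.83, 10.79 and 10.81 in CD69-activated arrays, 11.85, 11.84 and 11.86 in CD69-/- arrays and 11.64, 11.63 and 11.56 in wild-type arrays (CD69-activated minus wild type -0.81, SE 0.0349, adjusted p = 1.14e-07). The nucleolar proteins Rrp1b and Npm1 differed by -0.56 (adjusted p = 5.45e-05) and -0.52 (adjusted p = 9.12e-05). TOP translation genes, the class of many snoRNA hosts, were called lower in 2 of 20 (Npm1 and Naca) and higher in none, with a median of 0.02, the same as all genes. Nonsense-mediated decay factors went both ways, 4 higher and 3 lower of 13, with a median of -0.01. Eif4a3 (-0.38, adjusted p = 0.00245) and Rnps1 (-0.33, adjusted p = 0.00014) of the exon junction were lower, and the kinase Smg1 (0.29, adjusted p = 0.000427) was higher.

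In CD69-/- cells, where 8.36% of all genes were called higher than in wild type and 6.78% lower, the same lists gave these counts. Box C/D proteins had 1 gene higher of 14 (Rpap3, 0.26), box H/ACA proteins 3 of 11 (Shq1 0.19, Naf1 0.17 and Smn1 0.17), trimming factors 2 of 22 (Exosc2 0.20 and Exosc8 0.16), polymerase I genes 5 of 32 (among them Rrp1b 0.47 and Myc 0.24), TOP genes 1 of 20 (Eef1b2 0.13) and decay factors 0 of 13. None of these lists had a gene called lower. Between CD69-activated and CD69-/- cells all 14 box C/D genes were called lower, as were 9 of 11 box H/ACA genes, 17 of 22 trimming factors, 29 of 32 polymerase I genes, 5 of 20 TOP genes and 4 of 13 decay factors. Called higher were 1 box H/ACA gene, 1 trimming factor and 3 decay factors. In this comparison 21% of all genes were called lower and 21.6% higher, and the lower counts of TOP genes and decay factors were nearer to that share than those of the other lists.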

How the data were processed

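RNA of 9 cultures was hybridised to 1-colour Affymetrix mouse gene arrays, with sense-strand labelling of total RNA per the labels' protocols. The submitters' processing notes name RMA, the oligo package and R 2.12.1 for the deposited values, which are log2 expression. RMA usually includes background correction, quantile normalization and probe summarization, and its settings are not given here. Precision is limited by having 9 arrays. Of 35556 probe sets, 21789 had a single gene symbol, 1621 several and 12146 none. Each gene was read by the probe set with the highest mean. Of the 60 members 9 had several probe sets, 3 of them with identical values. All 60 matched a RefSeq gene ID, which gave chromosomes and containing genes. No coordinates are given for probe sets because the build behind their annotation is not named. Genes were not filtered on low values, so all members were tested.

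Values went unchanged into limma 3.58.1 (R 4.3.3) with a mean per group, all 9 arrays in one fit and no trend in eBayes. Residual degrees of freedom were 6, with 4.78 from the prior, and two-sided tests were adjusted by Benjamini-Hochberg over all 19938 genes. SE is limma's moderated standard error. The fit was tested on simulated data. Members and gene lists were chosen with earlier results of these data known. Genes were named by a rule (per class and comparison, up to 5 called rises and 5 called falls, all host transcripts, up to 4 called genes per list, the containing genes), and other members named in the text were chosen after their values were seen. Same-numbered arrays had deviations that correlated between -0.242 and 0.142 and were not treated as pairs. Alternatives covered scaling, dim genes, probe sets, arrays in the fit, the variance prior, array weights, a replicate block, sex chromosomes and each array left out. Sequences of the mature small RNAs were not used here.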

Additional observations from a re-analysis of the deposited data

How the results depend on the processing

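Of the 38 named member calls, 24 held under all 18 alternatives and 14 were lost under some. Small RNA genes called higher in CD69-/- than in wild type numbered 5 when only the 6 arrays compared were fitted and 2 with arrays weighted, against 1. The matching shares of all genes were 9.25%, 10.2% and 8.36%. With arrays weighted, 5 and not 8 were higher in CD69-activated than in wild type, where 9.39% of all genes were higher. For host transcripts, the higher count in CD69-/- against wild type was 1 with arrays centred on their medians and 1 with an intensity trend and robust prior, and the lower count was 0 under centring, cyclic loess, the mean of probe sets and the replicate block. The mean of probe sets gave 0 hosts higher in CD69-activated than in wild type, with Gas5 reversed to -0.092, and centring gave 0 hosts higher in CD69-activated than in CD69-/- cells. The replicate block gave 7 higher and 12 lower small RNA genes in CD69-activated against wild type, 8 and 18 against CD69-/-, and 1 and 0 in CD69-/- against wild type. Higher and lower shares of all genes were then 9.12% and 12.7%, 20.3% and 20.1%, and 7.15% and 5.93%. The cause of these shifts was not tested.

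Leaving out each array in turn, small RNA genes called lower in CD69-activated than in wild type ranged from 7 to 26, those called higher from 4 to 8 and their median from -0.282 to -0.018. Against CD69-/- cells the ranges were 12 to 28 lower, 7 to 8 higher and -0.244 to -0.083. In CD69-/- against wild type they were 0 lower, 1 to 2 higher and a median of 0.01 to 0.071. Shares of all genes called lower ranged from 10.2% to 13.8%, 18.5% to 20.8% and 4.86% to 7.29% in these 3 comparisons. Those called higher ranged from 7.08% to 9.94%, 16.4% to 20.7% and 5.48% to 9.14%. For host transcripts, CD69-activated against wild type had 1 higher and 0 lower throughout (median -0.032 to 0.016). CD69-activated against CD69-/- had 0 to 1 higher and 0 to 1 lower (-0.037 to 0.001), and CD69-/- against wild type had 0 higher and 0 to 1 lower (0.013 to 0.077). Where 1 group kept 2 arrays, the spread was pooled over all groups.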
